A study of Mus musculus with 37 samples.

Results

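The genes described are 9 markers of the medium spiny neurons of the striatum: Drd1, Drd2, Adora2a, Ppp1r1b, Penk, Tac1, Rgs9, Pde10a and Gnal. They were chosen by symbol, through the probe set that carries that symbol alone, and 8 of the 9 were measured among 19938 genes on the arrays. Each of the 8 had 1 such probe set. Adora2a, which encodes an adenosine receptor, had none and was not analysed here. The study profiled RNA of 4 brain regions (cortex, olfactory bulb, brain stem and cerebellum) of 8 male mice, all F1 hybrids of the C57BL/6N and 129Sv strains. Of these, 2 were df/+, with a heterozygous deletion of the segment that corresponds to human 16p11.2, 3 were dp/+, with its heterozygous duplication, and 3 were +/+. The segment was thus present in 1 copy in df/+, 3 in dp/+ and 2 in +/+ mice. The alteration is present in every cell of the animal, no agent was given, and the labels state no age. Each replicate is 1 mouse, and each mouse gave up to 4 regions, 31 samples in all; no cortex of dp/+ mouse 3 was analysed here. Values are log2 RMA summaries, in which a difference of 1 is a doubling of signal. They compare samples within a gene, and are not compared between genes because probe sets differ in brightness.

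The striatum is the input nucleus of the basal ganglia, and most of its neurons are inhibitory medium spiny neurons that receive cortical glutamate and midbrain dopamine. Those of the direct pathway carry the dopamine D1 receptor (Drd1) and make substance P (from Tac1), and those of the indirect pathway carry the D2 receptor (Drd2) and the adenosine receptor (Adora2a) and make enkephalin (from Penk). Both kinds raise cyclic AMP through the G protein subunit Golf (Gnal), pass the signal through DARPP-32 (Ppp1r1b), break cyclic AMP and cyclic GMP down with phosphodiesterase 10A (Pde10a) and end G protein signals with RGS9. Several of these genes are also used outside the striatum, Penk by granule cells of the olfactory bulb, Gnal by olfactory sensory neurons and Drd2 by dopamine neurons. No sample is labelled striatum, and the labels do not say with which of the 4 regions it was dissected. In bulk tissue, fewer cells of a type and less RNA per cell cannot be told apart.

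All 8 measured genes were highest in the samples labelled cortex. In the +/+ mice each of the 8 differed among the 4 regions (limma F test, mouse as a block, adjusted p between 2.51e-13 and 9.81e-06), where 58% of all genes did. Each was higher in cortex than in olfactory bulb (8 of 8, against 19.3% of all genes), than in brain stem (8 of 8, against 13.4%) and than in cerebellum (8 of 8, against 17.4%). The median difference over the 8 genes was 2.13 for cortex minus olfactory bulb, 1.40 for cortex minus brain stem and 1.92 for cortex minus cerebellum on the log2 scale, and the median over all genes was −0.04, −0.03 and −0.07. The cortex mean was the highest of the 4 regions for 18% of all genes. Over all 31 samples and 3 genotypes, every cortex sample lay above every other sample for 7 of the 8 genes, as it did for 3.14% of all genes. The gap was wide for Rgs9 (1.34), Drd1 (1.09) and Pde10a (1.02), and narrow for Penk (0.03) and Drd2 (0.06). Tac1 was the exception, because the cortex of df/+ mouse 2 read 10.03 and the brain stem of the same mouse 10.07.

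**Figure D1:**
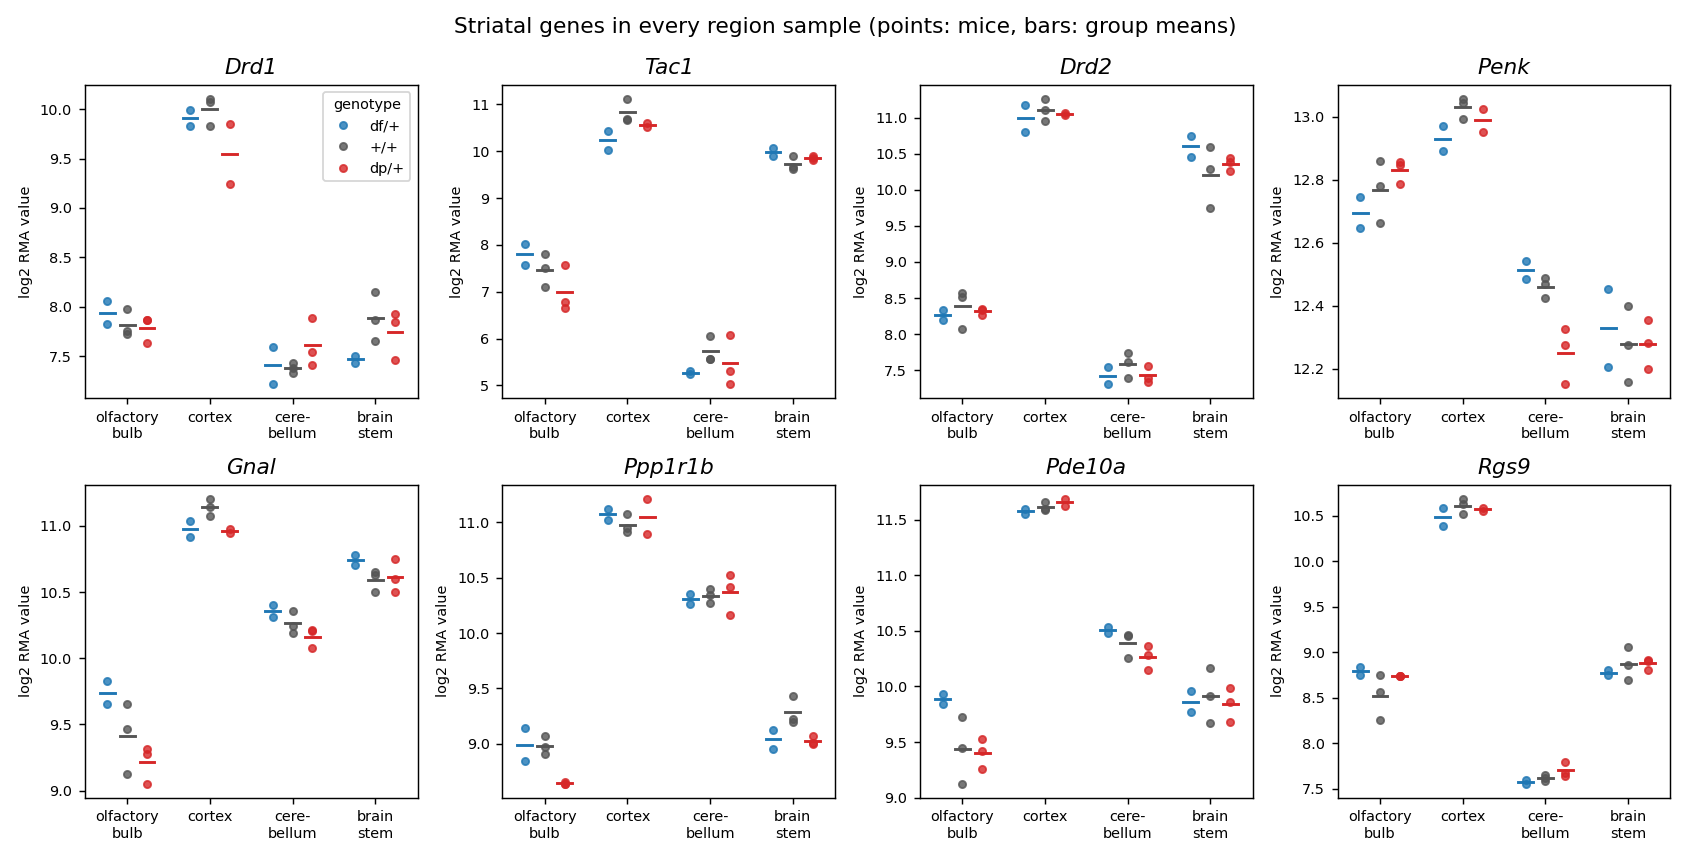
Log2 RMA value (vertical axis, one scale per gene) of the 8 measured striatal genes in each region sample, grouped by region on the horizontal axis and coloured by genotype (df/+, +/+, dp/+); points are mice and bars are group means. The cortex points lie above all others in every panel but that of Tac1, where brain stem comes close, while the order of the other 3 regions differs between genes.

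The 5′ flanking sequences of 4 of these genes are given because the genes share a regional maximum. They are the bases before the annotated gene start in RefSeq (GRCm38.p6), read 5′ to 3′ on the strand of the gene, at chr13:54055659-54055908 (minus strand) for Drd1, chr6:7554811-7555060 (plus) for Tac1, chr9:49340153-49340359 (plus) for Drd2 and chr11:109298182-109298431 (minus) for Rgs9. Capitals mark 3 motifs searched on both strands: TGACG, the core of the cyclic AMP response element, GGGCGG, the box bound by Sp1, and TATAAA, the TATA box.
Drd1: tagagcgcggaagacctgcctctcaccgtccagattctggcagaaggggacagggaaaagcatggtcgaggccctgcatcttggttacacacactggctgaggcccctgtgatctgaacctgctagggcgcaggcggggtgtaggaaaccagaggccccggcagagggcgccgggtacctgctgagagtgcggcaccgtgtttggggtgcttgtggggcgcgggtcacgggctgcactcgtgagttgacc
Tac1: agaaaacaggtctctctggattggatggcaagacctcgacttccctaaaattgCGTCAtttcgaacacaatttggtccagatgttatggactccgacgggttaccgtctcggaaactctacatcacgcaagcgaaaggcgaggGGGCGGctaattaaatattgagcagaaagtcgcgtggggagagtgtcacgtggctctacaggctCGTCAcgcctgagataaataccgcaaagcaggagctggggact
Drd2: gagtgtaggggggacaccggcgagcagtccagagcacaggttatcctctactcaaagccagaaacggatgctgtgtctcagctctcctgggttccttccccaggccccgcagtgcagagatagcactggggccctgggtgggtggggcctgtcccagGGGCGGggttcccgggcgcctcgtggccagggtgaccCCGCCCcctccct
Rgs9: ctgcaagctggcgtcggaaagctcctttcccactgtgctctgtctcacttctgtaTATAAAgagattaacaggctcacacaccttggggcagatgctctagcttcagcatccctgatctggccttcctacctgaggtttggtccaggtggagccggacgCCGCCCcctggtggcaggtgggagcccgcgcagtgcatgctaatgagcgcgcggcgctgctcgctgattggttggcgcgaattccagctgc
Tac1 held TGACG at 2 places on the other strand, 43 to 39 and 197 to 193 bases before the start, and GGGCGG once. Drd2 held GGGCGG 2 times, Rgs9 held GGGCGG and TATAAA once each, and Drd1 held none of the 3 in this window. The TATAAA of Rgs9 lay 195 to 190 bases before the start, and whether any of these sites is used was not tested. Of 32851 RefSeq promoters cut to 250 bases, 17.8% held TGACG, 32.7% GGGCGG and 12.4% TATAAA, so no motif was common to the 4 genes and each is found widely.

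Of the genes of the direct pathway, Drd1 was set apart most cleanly and Tac1 had the widest range. Drd1, the Gs/olf-coupled dopamine receptor, read 10.08, 10.10 and 9.83 in cortex of +/+ mice 1, 2 and 3, against 7.98, 7.72 and 7.76 in olfactory bulb, 8.15, 7.86 and 7.66 in brain stem and 7.38, 7.43 and 7.33 in cerebellum. The 3 cortex values lay above all others, while those of bulb and brain stem overlapped. Cortex exceeded bulb by 2.18 ± 0.10 (SE, n = 3 mice; 4.54-fold; limma, adjusted p = 9.72e-11), brain stem by 2.11 ± 0.10 (4.32-fold; adjusted p = 7.85e-10) and cerebellum by 2.62 ± 0.10 (6.14-fold; adjusted p = 2.94e-12). Tac1, the precursor of substance P and neurokinin A, read 10.70, 11.11 and 10.68 in cortex, against 9.62, 9.90 and 9.66 in brain stem, 7.11, 7.80 and 7.52 in bulb and 5.56, 5.56 and 6.05 in cerebellum. No 2 regions of Tac1 overlapped in the +/+ mice. Its cortex level was 2.14-fold that of brain stem (1.10 ± 0.14; adjusted p = 2.27e-05) and 10.2-fold that of bulb (3.35 ± 0.14; adjusted p = 4.92e-11), and stood 5.10 ± 0.14 log2 units above that of cerebellum as measured (adjusted p = 1.32e-13). The cerebellar mean of Tac1, 5.73, was the only regional mean of a measured striatal gene below the highest of 13 genes of other organs, which spanned 5.18 to 7.35 there. The bulb mean of Tac1, 7.47, and the cerebellar mean of Drd1, 7.38, lay just above the highest of those 13 in their regions, 7.43 and 7.35. As probe sets differ in brightness, this is a rough guide to the low end of the scale. No fold is given over the cerebellar value of Tac1, and the folds over the other values near that end are rough.

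Of the genes of the indirect pathway, Drd2 spanned a wide range of levels over the regions and Penk a narrow one. Drd2, the Gi-coupled dopamine receptor that is also the autoreceptor of dopamine neurons, read 10.95, 11.25 and 11.10 in cortex of the +/+ mice, against 9.74, 10.28 and 10.59 in brain stem, 8.07, 8.57 and 8.52 in bulb and 7.62, 7.74 and 7.39 in cerebellum. The cortex values stood above all others and the brain stem values came next. Cortex exceeded brain stem by 0.90 ± 0.14 (SE, n = 3 mice; 1.86-fold; limma, adjusted p = 0.000149), bulb by 2.72 ± 0.14 (6.57-fold; adjusted p = 5.25e-10) and cerebellum by 3.52 ± 0.14 (11.5-fold; adjusted p = 7.39e-12). Penk, the enkephalin precursor, was flat in comparison: it read 13.06, 13.04 and 12.99 in cortex, against 12.86, 12.66 and 12.78 in bulb, 12.16, 12.40 and 12.28 in brain stem and 12.42, 12.49 and 12.47 in cerebellum. Its groups did not overlap between cortex and any other region, but the steps were small. Cortex exceeded bulb by 0.26 ± 0.09 (1.2-fold; adjusted p = 0.0299), cerebellum by 0.57 ± 0.09 (1.49-fold; adjusted p = 7.57e-05) and brain stem by 0.75 ± 0.09 (1.69-fold; adjusted p = 1.16e-05). The step over bulb was not past the threshold without +/+ mouse 2 (0.20; adjusted p = 0.251) or without +/+ mouse 3 (0.29; adjusted p = 0.0967).

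The 4 genes of the shared signalling chain had their second highest region in different places. Gnal, the alpha subunit of Golf, read 11.07, 11.14 and 11.20 in cortex of the +/+ mice, against 10.50, 10.63 and 10.65 in brain stem, 10.19, 10.25 and 10.36 in cerebellum and 9.13, 9.65 and 9.47 in bulb. It was thus lowest in the bulb, where cortex stood 3.3-fold higher (1.72 ± 0.09 SE, n = 3 mice; limma, adjusted p = 1.17e-09), and cortex was 1.46-fold brain stem (0.55 ± 0.09; adjusted p = 0.000415) and 1.83-fold cerebellum (0.88 ± 0.09; adjusted p = 1.42e-06). Ppp1r1b, the inhibitor of protein phosphatase 1 that dopamine switches on, read 11.08, 10.95 and 10.91 in cortex, against 10.27, 10.34 and 10.39 in cerebellum, 9.22, 9.43 and 9.20 in brain stem and 9.07, 8.97 and 8.90 in bulb. Cerebellum came second, with cortex 1.56-fold higher (0.65 ± 0.09; adjusted p = 2.57e-05), and cortex was 3.25-fold brain stem (adjusted p = 3.88e-09) and 4.0-fold bulb (adjusted p = 1.31e-10). Pde10a read 11.66, 11.59 and 11.60 in cortex, against 10.46, 10.45 and 10.26 in cerebellum, 9.67, 10.16 and 9.92 in brain stem and 9.13, 9.73 and 9.45 in bulb. It shared the order of Ppp1r1b, with cortex 2.34-fold cerebellum (1.22 ± 0.12; adjusted p = 3.99e-07), 3.25-fold brain stem (adjusted p = 7.81e-08) and 4.54-fold bulb (adjusted p = 1.05e-09). Rgs9, whose product speeds the turning off of Gi and Go proteins, read 10.69, 10.52 and 10.63 in cortex, against 8.70, 9.06 and 8.86 in brain stem, 8.26, 8.75 and 8.56 in bulb and 7.62, 7.65 and 7.58 in cerebellum. Its order was that of the dopamine receptors and Tac1, with cortex 3.34-fold brain stem (1.74 ± 0.11; adjusted p = 2.25e-08), 4.24-fold bulb (adjusted p = 6.09e-10) and 7.95-fold cerebellum (adjusted p = 2.58e-12).

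**Figure D2:**
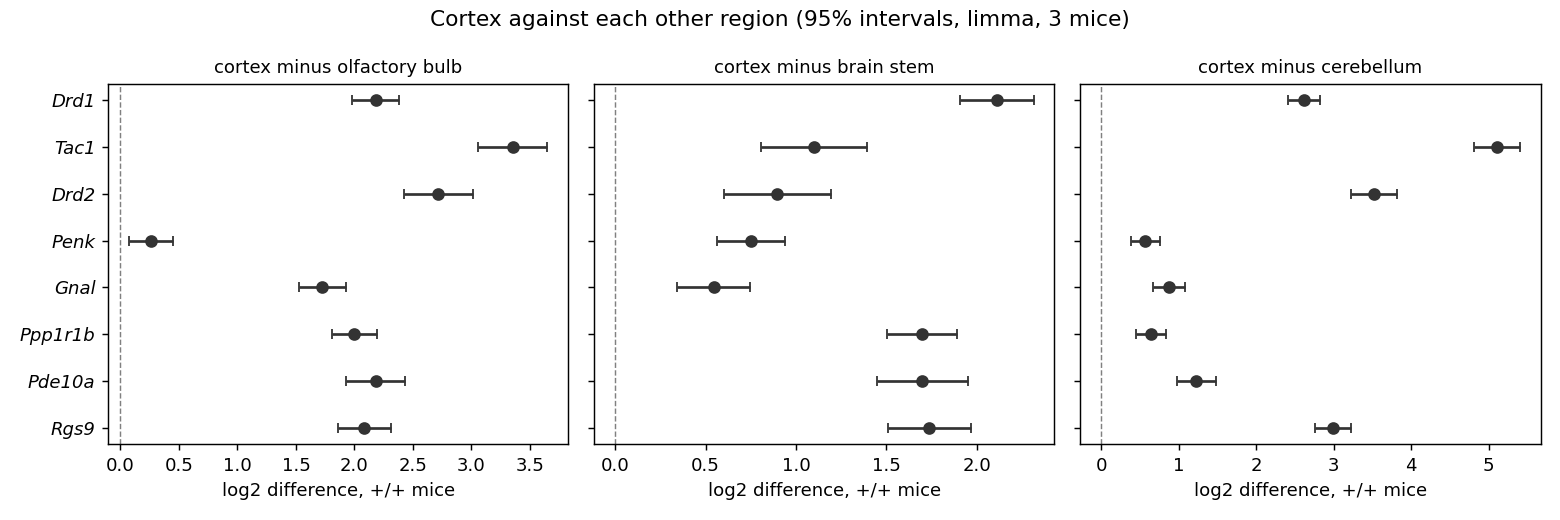
Difference in log2 value (horizontal axis) between cortex and each other region in the 3 +/+ mice, one row per gene; points are limma estimates and bars 95% intervals, and the dashed line marks 0. All 24 intervals lie to the right of 0; that of Penk against the olfactory bulb, 0.07 to 0.45, comes nearest.

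Among the 3 regions other than cortex, the genes fell into different orders. Of all 48 comparisons of 2 regions, 24 of them with cortex, 46 passed the threshold in either direction. By region pair, 27.3% to 37.6% of all genes did. Between olfactory bulb and brain stem, Drd2, Ppp1r1b, Tac1, Rgs9, Pde10a and Gnal were lower in bulb (6 of 8, against 18.5% of all genes) and Penk was higher (14.1% of all genes were). Drd1 differed there by −0.07, with a 95% interval of −0.27 to 0.13 (adjusted p = 0.641). Between bulb and cerebellum, Drd1, Drd2, Penk, Tac1 and Rgs9 were higher in bulb (5 of 8, against 16.3% of all genes) and Ppp1r1b, Pde10a and Gnal were lower (3 of 8, against 21.3%). Between brain stem and cerebellum, Drd1, Drd2, Tac1, Rgs9 and Gnal were higher in brain stem (5 of 8, against 18.4% of all genes) and Ppp1r1b and Pde10a were lower (2 of 8, against 18.4%). Penk differed by −0.18 there, with a 95% interval of −0.37 to 0.01 (adjusted p = 0.128). Several of these calls were lost when 1 mouse was left out, while the estimates kept their sign. Between bulb and brain stem, Ppp1r1b (−0.30 in all 3 mice) was not past the threshold without +/+ mouse 2 or 3 (−0.22 and −0.30, limma, adjusted p = 0.232 and 0.0883). Nor was Rgs9 (−0.35 in all 3 mice, then −0.37 and −0.37, adjusted p = 0.0513 and 0.0889). Between brain stem and cerebellum the same held for Gnal (0.33, then 0.30 and 0.35, adjusted p = 0.073 and 0.0639). Between bulb and cerebellum it held for Penk without +/+ mouse 1 or 3 (0.31, then 0.24 and 0.31, adjusted p = 0.0697 and 0.0808). In single mice of all genotypes, the order of the +/+ means was met in all 7 mice with 4 regions for Drd2 and Gnal, in 6 for Ppp1r1b, Tac1, Rgs9 and Pde10a, in 5 for Penk and in 3 for Drd1. When arrays were quantile-normalised again over all regions, Penk no longer differed between bulb and cerebellum (0.09; adjusted p = 0.412) and was lower in brain stem than in cerebellum (−0.32; adjusted p = 0.00667), and cyclic loess gave the same 2 changes.

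Other genes of striatal neurons were read in the same +/+ samples. Besides the genes above, 3 further direct pathway genes and 1 indirect pathway gene were listed and measured, and Pdyn and Isl1 of the direct pathway and Gpr6 of the indirect were highest in cortex. Isl1, a transcription factor, stood close in cortex and brain stem, at 7.46 and 7.36. Gpr6, an orphan receptor of indirect pathway neurons, read 10.02 in cortex, 8.31 in bulb, 8.17 in brain stem and 7.31 in cerebellum, while Chrm4, the muscarinic receptor of direct pathway neurons, read 9.92 in cortex and 10.07 in bulb. Of 17 other measured striatal genes, 10 were highest in cortex, 5 in bulb and 2 in cerebellum, and 13 were higher in cortex than in brain stem, with 1 lower. Scn4b, a sodium channel subunit, read 10.04 in cortex, 9.99 in brain stem and 6.35 in bulb, and Rxrg, a retinoid receptor, 9.88 in cortex, 8.79 in bulb and 8.34 in brain stem. Meis2, a transcription factor of striatal and bulb interneuron development, read 11.97 in cortex and 13.20 in bulb. Of the 21 measured genes of the dopamine signalling chain, 13 were highest in cortex, as were 18% of all genes. The list of the chain shares Gng7, Adcy5, Pde1b and Ptpn5, all highest in cortex, with the list of other striatal genes, so the 2 counts are not independent. Gng7, the gamma subunit that partners Golf in striatum, read 11.47 in cortex, 9.71 in brain stem, 9.28 in bulb and 8.97 in cerebellum.

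Marker lists of neighbouring structures were read in the same +/+ samples. The 6 measured genes of cortical pyramidal neurons were all highest in cortex, with Tbr1, a transcription factor of these cells, at 10.70 in cortex and 8.01 in brain stem. Genes of the hypothalamus (5 of 5), of the thalamus (4 of 5), of cholinergic neurons (3 of 4) and of dopamine neurons (3 of 4) were highest in brain stem. Pmch, a peptide of the lateral hypothalamus, read 7.54 in cortex and 10.31 in brain stem, and Slc6a3, the dopamine transporter, 7.96 in cortex and 10.30 in brain stem. Slc5a7, the choline transporter, read 7.71 in cortex and 8.87 in brain stem, and was lower in bulb and cerebellum at 5.90 and 5.89. Lhx8, the other gene listed for cholinergic interneurons, was highest in cortex. It read 6.42 there, 5.86 in bulb, 5.82 in brain stem and 5.80 in cerebellum. These values lay below the highest of the genes of other organs in each region. Genes of the hippocampus were split (3 of 5 highest in cortex), and the 4 genes of the choroid plexus were highest in cerebellum. In the olfactory bulb, Omp, the marker of olfactory sensory neurons, read 11.00, and at most 6.81 in the other regions. Of the 5 listed genes of these neurons 3 were highest in bulb, Gng13 being highest in cerebellum and Adcy3 in brain stem. The share of striatum, or of any other structure, in a sample was not tested.

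The brain stem samples differed among themselves in genes of other structures, and the striatal values are given beside these. The mean log2 value of the 6 pyramidal neuron genes was 7.93 and 7.89 in brain stem of df/+ mice 1 and 2, 8.55, 7.94 and 8.13 in dp/+ mice 1, 2 and 3, and 8.92, 9.40 and 8.23 in +/+ mice 1, 2 and 3. Tbr1 read 7.13 in brain stem of dp/+ mouse 1, against 8.49 and 9.08 in that of +/+ mice 1 and 2, and lay between 5.79 and 6.45 in the other 5. Choroid plexus genes were also high in +/+ mice 1 and 2, with list means of 9.57 and 10.17, against 8.01 to 8.74 in the other 6. Ppp1r1b had its highest brain stem value in +/+ mouse 2 (9.43) and Drd1 in +/+ mouse 1 (8.15), while Drd2 had its lowest there (9.74). Slc6a3, which Drd2 accompanies in dopamine neurons, was lowest in these same 2 mice, at 10.28 and 9.42, against 10.77 to 11.40 in the other 6. In brain stem of df/+ mouse 2 the hypothalamus genes averaged 6.90, against 8.53 to 8.93 in the other 7. The part of these differences in the striatal values was not tested. Fitted to all 8 mice without the 3 brain stem samples high in pyramidal genes, a choice made after seeing the data, all 8 genes still differed among regions and cortex still exceeded brain stem for each, but Drd1 no longer differed between brain stem and cerebellum (0.18; adjusted p = 0.203), nor Rgs9 between bulb and brain stem (−0.14; adjusted p = 0.119).

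**Figure D3:**
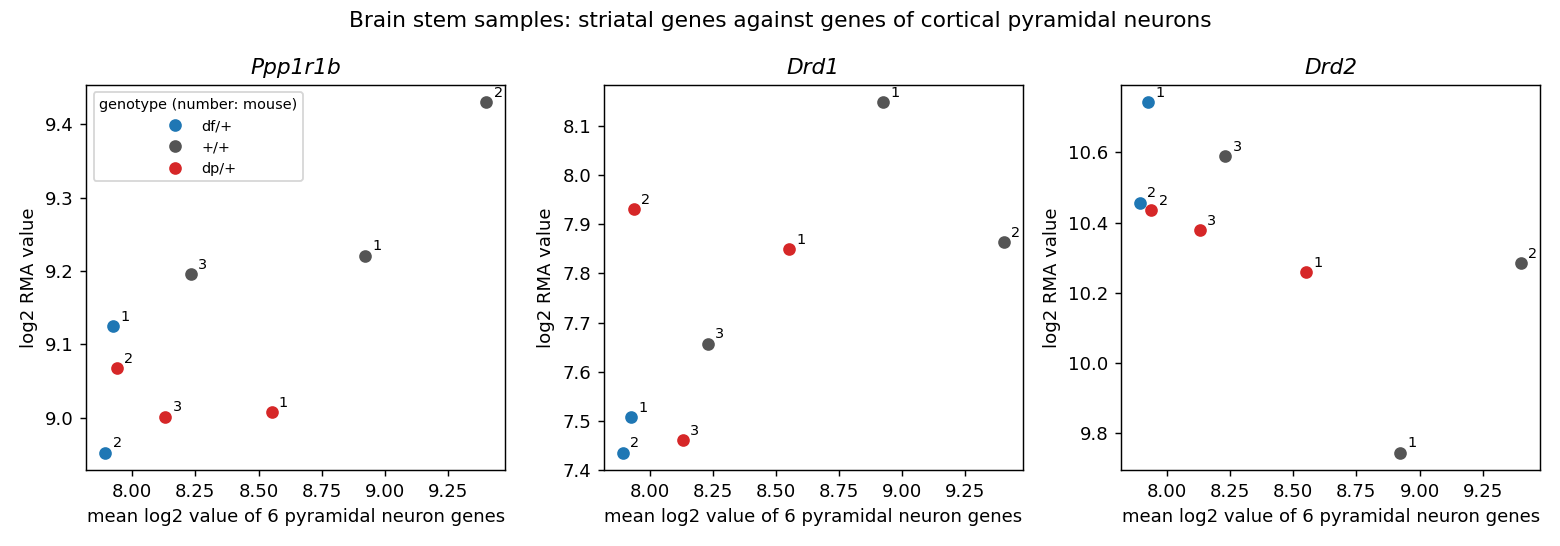
Log2 value of Ppp1r1b, Drd1 and Drd2 (vertical axes) against the mean log2 value of 6 pyramidal neuron genes (horizontal axis) in the 8 brain stem samples; points are mice, coloured by genotype and numbered by mouse. The +/+ mice 1 and 2 lie farthest to the right, at 8.92 and 9.40, with the highest Drd1 and Ppp1r1b values between them and the lowest Drd2 value in +/+ mouse 1.

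The next comparison asked whether the genes follow the copy number of the segment, which holds none of them. Across the brain, with 1 value per mouse (the mean over its regions of the log2 value minus the +/+ mean of that region), none of the 8 passed the threshold for a slope on log2 copies (limma; 0.11% of all genes did), for df/+ minus +/+ (0.115%) or for dp/+ minus +/+ (1.86%). At an unadjusted p below 0.05 there were 2, 0 and 2 of the 8, against 6.87%, 6.75% and 23.7% of all genes. A slope of 1 would be proportional to copy number, and the 8 slopes ran from −0.12 to 0.05, with a median of −0.04 against 0.01 over all genes. Gnal read 0.08 and 0.12 in the df/+ mice, −0.13, 0.07 and 0.07 in the +/+ mice, and −0.18, −0.11 and −0.01 in the dp/+ mice. The values of +/+ and dp/+ mice overlapped, and the slope was −0.12 ± 0.05 (SE, limma, adjusted p = 0.697, unadjusted p = 0.0219, n = 8 mice). Pde10a read 0.14 and 0.09 in the df/+ mice, −0.11, 0.14 and −0.03 in the +/+ mice, and −0.02, −0.01 and −0.17 in the dp/+ mice. Its slope was −0.12 ± 0.05 (limma, adjusted p = 0.717, unadjusted p = 0.0379). With array weights both slopes passed the threshold (Gnal −0.13, adjusted p = 0.0341; Pde10a −0.11, adjusted p = 0.0446). Tac1 differed by −0.22 ± 0.09 between dp/+ and +/+ mice (adjusted p = 0.16) and Ppp1r1b by −0.14 ± 0.05 (adjusted p = 0.161).

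In cortex, where the genes were highest, no genotype comparison passed the threshold in the model used throughout. None of the 8 did for df/+ minus +/+ (limma; 0.1% of all genes did; 1 of the 8 at an unadjusted p below 0.05, as 6.01% of all genes), for dp/+ minus +/+ (0%; unadjusted 1 of the 8, as 15.8% of all genes) or for the slope (0.0953%; unadjusted 0 of the 8, as 5.45% of all genes). With 2 dp/+ cortex samples, no gene on the arrays passed for dp/+ minus +/+ in this model. The lack of a call among the 8 there does not show that genotype has no effect on them. Tac1 read 10.44 and 10.03 in cortex of the df/+ mice, against 10.70, 11.11 and 10.68 in +/+ cortex. Both df/+ values lay below all 3 +/+ values, and the difference was −0.59, with a 95% interval of −1.11 to −0.08 (unadjusted p = 0.0252, adjusted p = 0.744). Drd1 read 9.85 and 9.24 in cortex of the dp/+ mice, against 10.08, 10.10 and 9.83 in +/+ cortex. Its difference was −0.47, with a 95% interval of −0.80 to −0.14 (limma, unadjusted p = 0.0071, adjusted p = 0.178). The value of dp/+ mouse 2 alone lay below all others. Over the 6 samples of any region with 2 arrays, the arrays differed by a median of 0.10 for Drd1 and by at most 0.57. Each dp/+ cortex sample had 1 array. The dp/+ minus +/+ difference of Drd1 in cortex was past the threshold with array weights (−0.50, limma, adjusted p = 0.0152). It was −0.19 without dp/+ mouse 2 and −0.77 without dp/+ mouse 1, fits that leave 1 dp/+ cortex. For Rgs9, Pde10a, Penk, Gnal, Ppp1r1b and Drd2 the differences of both genotypes ran from −0.17 to 0.09. The tightest 95% intervals were those of Penk, −0.28 to 0.08 for df/+ and −0.24 to 0.13 for dp/+. Cortex values of Pde10a spanned only 11.55 to 11.69 over the 7 mice and those of Penk 12.89 to 13.06. Tac1 and Gnal were below all +/+ values in both df/+ and dp/+ cortex and Penk in df/+ cortex, which makes 3 of the 8 genes for df/+ (14.3% of all genes) and 2 of the 8 for dp/+ (13.9%).

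In the olfactory bulb, 1 of the 8 genes passed the threshold for a slope on log2 copies, Gnal (limma; 0.246% of all genes passed, 0.11% with a falling slope). It read 9.65 and 9.82 at 1 copy, 9.13, 9.65 and 9.47 at 2 copies, and 9.05, 9.32 and 9.28 at 3 copies of the segment. The values at 2 copies overlapped those at 1 copy and those at 3 copies. Gnal fell with copy number (−0.33 ± 0.07 per log2 copy, SE; n = 8 mice; adjusted p = 0.03). The call was lost when the bulb was fitted alone (adjusted p = 0.816) and without any 1 of 6 mice, at adjusted p of 0.0985 and 0.906 without df/+ mice 1 and 2, 0.248, 0.0506 and 0.0667 without dp/+ mice 1, 2 and 3, and 0.0583 without +/+ mouse 3. The slope itself stayed between −0.38 and −0.28 in those fits. Pde10a read 9.84 and 9.93 at 1 copy, 9.13, 9.73 and 9.45 at 2 copies, and 9.53, 9.42 and 9.26 at 3 copies. Its slope was −0.31 ± 0.08 (unadjusted p = 0.000877, adjusted p = 0.182), and it passed with array weights (−0.27; adjusted p = 0.0309). Tac1 and Ppp1r1b had slopes of −0.50 ± 0.17 and −0.21 ± 0.08 (limma, unadjusted p = 0.00647 and 0.0145, adjusted p = 0.521 and 0.652). Thus 4 of the 8 genes met an unadjusted p below 0.05, all with falling slopes. Of all genes 6.04% did, and 2.17% with a falling slope.

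None of the 8 genes passed for df/+ minus +/+ in the bulb (limma; 0.291% of all genes did; 3 of the 8 at an unadjusted p below 0.05, as 10.7% of all genes) or for dp/+ minus +/+ (2.27%; unadjusted 3 of the 8, as 17.9% of all genes). Ppp1r1b read 8.64, 8.64 and 8.65 in bulb of the dp/+ mice, against 9.07, 8.97 and 8.90 in +/+ bulb. All dp/+ values lay below all +/+ values (as for 8.82% of all genes), with a difference of −0.34 ± 0.10 (SE, n = 3 mice each; unadjusted p = 0.00196, adjusted p = 0.0638), and the call was made when arrays were centred on their medians (−0.39; adjusted p = 0.0308). Pde10a stood above all +/+ values in both df/+ bulbs (as for 10.5% of all genes), by 0.45 ± 0.13 (unadjusted p = 0.00218, adjusted p = 0.169). Markers of other cells also differed between the bulbs. Gng13, a G protein subunit of olfactory sensory neurons, read 9.33 and 9.47 in df/+ bulb and 9.47, 9.57 and 9.49 in dp/+ bulb, against 10.80, 10.09 and 9.92 in +/+ bulb (limma, adjusted p = 0.0456 and 0.0237). The mean of the 5 listed genes of these neurons lay at 9.06 to 9.40 in df/+ and 9.19 to 9.38 in dp/+ bulb, against 9.57 to 9.90 in +/+ bulb. Of these 5, Gng13 alone passed. Omp differed by −0.29 in df/+ and −0.34 in dp/+ bulb (limma, adjusted p = 0.613 and 0.288), and Adcy3 by 0.02 and −0.03. Stoml3 differed by −0.80 and −0.68, and Cnga2 by −0.56 and −0.39. The mean of the 6 pyramidal neuron genes was 8.88 and 8.93 in df/+ bulb and 8.55 to 8.69 in dp/+ bulb, against 8.62 to 8.89 in +/+ bulb, and Tbr1 ran from 9.07 to 9.39 in df/+ and from 8.27 to 8.67 in dp/+ bulb, against 8.64 to 8.96 in +/+ bulb. The group means of the 6 pyramidal genes together thus had the order of those of Gnal over the 3 genotypes. Among these genes, Fezf2 and Neurod6 were lower in df/+ than in +/+ bulb (−0.09 and −0.05). Tbr1 did not pass for df/+ minus +/+ or dp/+ minus +/+ (limma, adjusted p = 0.734 and 0.643). The part of these genes in the slope of Gnal was not tested.

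In cerebellum and brain stem, none of the 8 genes passed the threshold for any genotype comparison. In cerebellum the shares of all genes were 0.0702% for df/+ minus +/+, 5.54% for dp/+ minus +/+ and 0.115% for the slope, and an unadjusted p below 0.05 was met by 0, 1 and 1 of the 8, against 8.78%, 28.5% and 4.09% of all genes. Penk read 12.27, 12.33 and 12.15 in cerebellum of the dp/+ mice, against 12.42, 12.49 and 12.47 in +/+ cerebellum. Those groups did not overlap (20.3% of all genes lay lower in that way), and the difference was −0.21 ± 0.08 (SE, n = 3 mice each; limma, adjusted p = 0.0979). In the same samples the mean of the 13 genes of other organs, all dim, lay at 6.38 to 6.47 in dp/+ cerebellum, against 6.19 to 6.28 in +/+ cerebellum, and its part in this value was not tested. In brain stem the shares were 0.211%, 0.015% and 0.12% in the same order, and an unadjusted p below 0.05 was met by 3, 1 and 0 of the 8, against 4.17%, 3.56% and 2.32% of all genes. Drd1 read 7.51 and 7.43 in df/+ brain stem, against 8.15, 7.86 and 7.66 in +/+ brain stem, a difference of −0.42 ± 0.16 (SE, n = 2 and 3 mice; adjusted p = 0.867). Drd2 read 10.74 and 10.46 in df/+ brain stem, against 9.74, 10.28 and 10.59 in +/+ brain stem, a difference of 0.39 ± 0.16 (adjusted p = 0.995), and the groups overlapped. Ppp1r1b read at most 9.07 in dp/+ brain stem, against 9.20 to 9.43 in +/+ brain stem (3.34% of all genes lay lower in that way). The difference was −0.26 ± 0.10 (limma, unadjusted p = 0.0146) and did not pass the threshold. Both df/+ values of Ppp1r1b also lay below all +/+ values there (as for 9.32% of all genes). In dp/+ cortex and cerebellum its differences from +/+ were 0.08 and 0.04. Tbr1, Fezf2 and Slc17a7, all pyramidal neuron genes, were lower in df/+ than in +/+ brain stem (adjusted p = 0.00506, 0.0101 and 0.0214). Without the brain stem samples of +/+ mice 1 and 2 and dp/+ mouse 1, a choice made after seeing the data that leaves 1 +/+ brain stem, the df/+ minus +/+ difference was −0.20 for Drd1, 0.01 for Drd2 and −0.16 for Ppp1r1b on the log2 scale, against −0.24 for Ppp1r1b with all samples; with 1 +/+ sample these are values without a test.

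**Figure D4:**
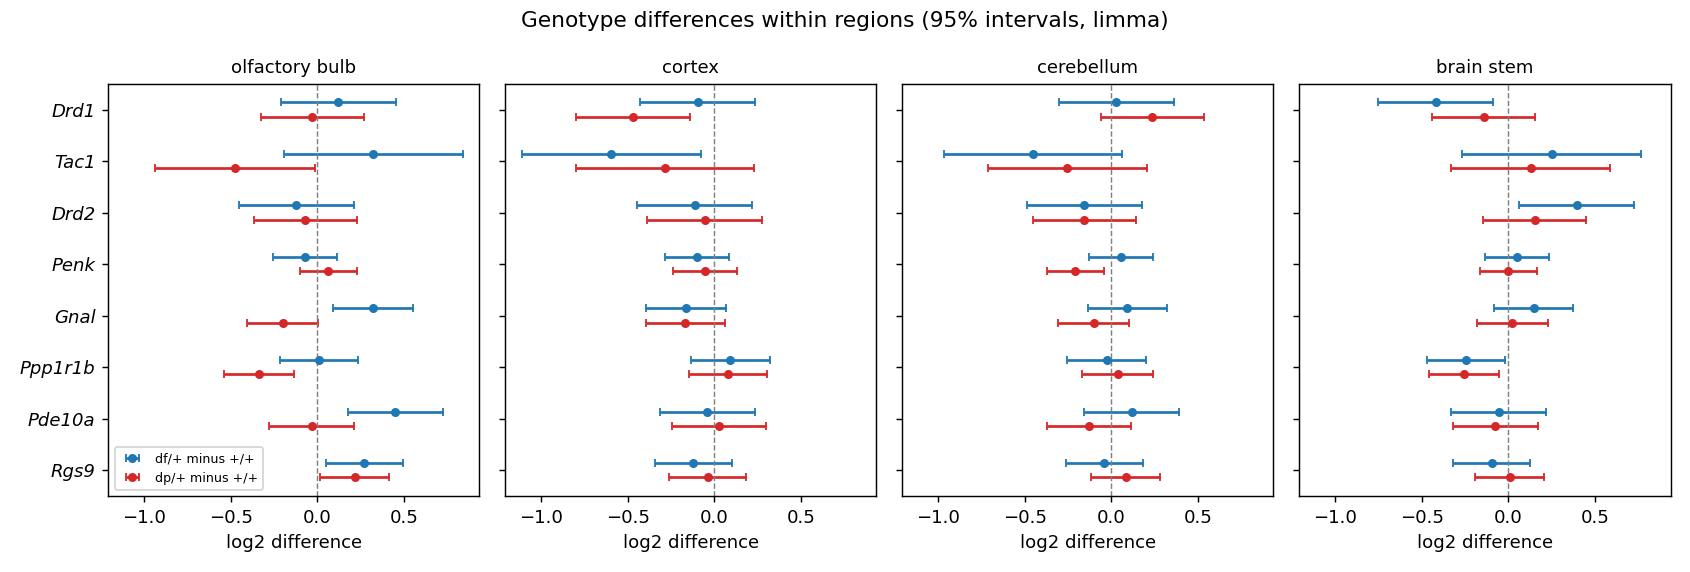
Difference in log2 value (horizontal axis) of df/+ minus +/+ and of dp/+ minus +/+ mice in each region, one row per gene; points are limma estimates and bars 95% intervals, and the dashed line marks 0. Most intervals cross 0, and none of the differences passed the threshold after adjustment over all genes.

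Whether the response to copy number differed between regions was tested in 1 model. None of the 8 genes passed (limma F test of 4 slopes, adjusted p = 1 for each; 0.0502% of all genes did), and 4 met an unadjusted p below 0.05, as did 1.91% of all genes: Gnal (0.00819), Tac1 (0.014), Penk (0.0154) and Pde10a (0.0173). The slope of Gnal was −0.33 in bulb, 0.02 in cortex, −0.12 in cerebellum and −0.08 in brain stem. The slope of Tac1 was −0.50 in bulb, 0.24 in cortex, 0.14 in cerebellum and −0.08 in brain stem. The call for Gnal in the bulb is therefore not shown to be particular to the bulb.

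The 8 genes were alike in where they were highest, and less so within a region. Over the 31 samples, 27 of the 28 pairs of genes had a Pearson correlation above 0, with a median of 0.65, the highest for Drd2 with Tac1 (0.98) and the lowest for Penk with Gnal (−0.004). With the mean of each region subtracted, the median was 0.10 and the range −0.53 to 0.61, with 19 pairs above and 9 below 0. The highest was then Pde10a with Gnal (0.61), followed by Pde10a with Rgs9 (0.57), and the lowest Drd1 with Drd2 (−0.53). These samples share mice and arrays, so the values are descriptions. The genes outside the set whose pattern over the 31 samples was most like that of a member were Arhgap25 for Drd1 (r = 0.97), Pnma2 for Tac1 (0.99), Arnt2 for Drd2 (0.99), Serpinb8 for Penk (0.94), Rundc3b for Gnal (0.98), Itpka for Ppp1r1b (0.97), Camta2 for Pde10a (0.96) and Plekhg5 for Rgs9 (0.99). With region means subtracted they were Lhx6 for Drd1 (0.73), Lmo3 for Tac1 (0.77), Itpkb for Drd2 (0.82), Rplp2 for Penk (0.73), Me1 for Gnal (0.81), Rasl10a for Ppp1r1b (0.80), Spock1 for Pde10a (0.86) and Arhgef2 for Rgs9 (0.82). Fezf2 was among the 3 genes most like Drd1 over all samples (0.96), and Pdyn, the dynorphin precursor of direct pathway neurons, among the 3 most like it once region means were subtracted (0.67).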

How the data were processed

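Total RNA was profiled on 37 Affymetrix arrays of 31 region samples of 8 mice. The authors deposited log2 RMA summaries of 35556 probe sets; RMA and Affymetrix Expression Console are named per the submitters' processing notes, with no version, and the base of 2 rests on their range, which ran from 3.29 to 14.54. RMA summaries compress differences at the dim end, so folds are those of the array scale. Array medians lay between 7.30 and 7.49, and precision is limited by how many arrays there were. The 6 samples with 2 arrays were averaged, and the olfactory bulb of +/+ mouse 3 was taken from an array labelled technical 2. Probe sets with 1 symbol (21789) gave 19938 genes, each by its probe set of highest mean.

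Fits were made with limma 3.58.1 in R 4.3.3 on all genes, and p-values adjusted by Benjamini-Hochberg over all of them, with a threshold of 0.05. Regions were compared in the 12 samples of the +/+ mice with mouse as a fixed block, since the regions of 1 mouse come from 1 animal; correlations of their deviations ran from −0.05 to 0.47. Genotypes were compared over 1 value per mouse, and within regions over 31 samples with mouse as a random block (consensus correlation 0.15 for slopes and 0.12 for groups). The replicate numbers were not taken to pair mice of different genotypes. The labels give no batch. The fits were tested on simulated data. The members and lists were chosen with earlier results of these data known. Besides the 8 members, up to 4 genes of each list with the smallest p in the region test are named, any listed gene called in a genotype comparison, the members' most similar genes, and others as examples chosen after their values were seen. The alternatives tried were 1 array per sample, other centring and normalisation (quantile, cyclic loess), brighter genes only, every probe set as a feature, a trended robust prior, array weights, other blocks, all mice or each region alone, no cortex, slopes on copies, each mouse left out, and no brain stem samples high in pyramidal genes.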

Additional observations from a re-analysis of the deposited data

How the results depend on the processing

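Of the 8 measured striatal genes, all 8 differed among regions in +/+ mice under every alternative, and the count of region pairs past the threshold was 46 under all of them but 2 kinds: 44 in all 8 mice without 3 brain stem samples, which was added after seeing the data, and 41 to 45 when 1 +/+ mouse was left out. Leaving out 1 mouse gave 8 genes in the region test each time and 0 genes for each genotype comparison other than the slope within regions, which had 1 call in the full data and 0 to 1 then. That slope count was 2 with array weights (Gnal and Pde10a in bulb) and 0 with each region fitted alone. The count for the slope across the brain, 0 in the full data, was 2 with array weights. The count for dp/+ minus +/+ within regions, 0 in the full data, was 1 with arrays centred on their medians (Ppp1r1b in bulb) and 3 with array weights, which called Gnal in bulb (−0.38; limma, adjusted p = 0.0309), Drd1 in cortex (−0.50; adjusted p = 0.0152) and Penk in cerebellum (−0.21; adjusted p = 0.0366); the weights were fitted with a convergence warning. The cause of these changes was not tested. No called value changed sign.

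The region test without the replicate block for mouse gave the same counts, 8 and 46. With the biological number as a replicate block the genotype counts were 0 across the brain and 1 for the slope within regions. Same-numbered mice of different genotypes had correlations of their deviations between −0.38 and 0.17. These are deviations from means of 2 or 3 mice, so they cannot decide whether the numbers pair mice. Without 1 of the 2 df/+ mice, the one left was taken to have the spread of the +/+ and dp/+ mice. The 2 or 3 mice a group limit the precision of genotype differences. Dim probe sets such as that of Tac1 in cerebellum lie near the low end of the scale, where array values are compressed.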

Other observations

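Other genes of opioid and tachykinin peptides and of their receptors were spread over the regions. Of 9 measured, 3 were highest in cortex, 3 in brain stem and 3 in olfactory bulb of +/+ mice. Differences among regions passed for 8 of them (limma F test, adjusted over all genes), where 58% of all genes passed. Tacr2, among those highest in cortex, was the 1 that did not pass (adjusted p = 0.575). Tacr1, the receptor of substance P, read 9.65 in bulb, 8.85 in brain stem, 8.55 in cortex and 7.25 in cerebellum (log2, mean of 3 mice). Tacr3, the neurokinin B receptor, was highest in brain stem, with 7.64 in cortex and 8.76 in brain stem, and Tac2, the precursor of neurokinin B, read 9.66 in bulb, 9.51 in brain stem and 9.19 in cortex. Oprd1, the delta opioid receptor that enkephalins bind, read 9.37 in bulb, 8.83 in cortex, 8.41 in brain stem and 7.24 in cerebellum. Of the dopamine signalling genes, Pde1b, a calcium-activated phosphodiesterase, read 11.41 in cortex, 10.96 in bulb, 10.94 in brain stem and 9.13 in cerebellum, and Ptpn5, the striatum-enriched phosphatase, 10.37 in cortex, 10.12 in brain stem, 9.35 in bulb and 8.03 in cerebellum. Prkar2b, a regulatory subunit of protein kinase A, read 10.38 in cortex and 7.96 in cerebellum.

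A few other listed genes passed the threshold in a genotype comparison within a region (limma, adjusted over all genes). Rarb, a retinoic acid receptor of striatal development, was lower in dp/+ cerebellum, at 8.54 against 8.97 in +/+ cerebellum (difference −0.43 ± 0.13, SE; adjusted p = 0.044). In the same comparison C1ql2 was higher, at 8.29 in dp/+ against 7.96 in +/+ cerebellum (adjusted p = 0.0419), and so was the sperm gene Prm1, at 6.84 in dp/+ against 6.52 in +/+ cerebellum (adjusted p = 0.0394). In that comparison 5.54% of all genes were called, and the 13 dim genes of other organs had a median difference of 0.24, with list means of 6.38 to 6.47 in dp/+ against 6.19 to 6.28 in +/+ cerebellum; their part in these calls was not tested. Oxt, the oxytocin precursor, rose with copy number in brain stem with a slope of 0.75 ± 0.15 (adjusted p = 0.0265) and read 8.78 in df/+, 9.76 in +/+ and 9.95 in dp/+ brain stem (means), and its df/+ mean includes the sample of df/+ mouse 2 in which hypothalamus genes averaged 6.90.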
